A study of Mus musculus with 30 samples.

Results

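The claudins described here are 10 genes of mouse lung and trachea, Cldn1, Cldn3, Cldn4, Cldn5, Cldn6, Cldn7, Cldn8, Cldn10, Cldn18 and Cldn23, of the 53715 genes counted. They were taken by gene name from the 3 count tables of the series, with gene IDs matched to GENCODE symbols, and all 10 were found. The study asked what airway smooth muscle does for the shape of the airways, by deleting Myocd, which codes for myocardin, a coactivator of contractile genes in smooth muscle. RNA-seq was done on 30 libraries, each from 1 lung or 1 trachea of a mouse embryo.

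The mutants were labelled Tbx4rtTAi/+; tetOcrei/+; MyocdF/F, with both Myocd alleles floxed. Controls were labelled Tbx4rtTAi/+; tetOcrei/+; MyocdF/+ and so carried the same transgenes and a single floxed allele. E13.5 control replicate 1 was the exception, labelled MyocdF/F with no transgene. As background, the rtTA transactivator needs doxycycline to switch on the tetO-driven Cre, and Tbx4 is active in lung and tracheal mesenchyme, whereas most claudins are made by epithelium and endothelium. The groups were lung at E13.5 (right and left lobes, 5 controls and 5 mutants), lung at E18.5 (right lobes, 4 controls and 6 mutants) and trachea at E18.5 (4 controls and 6 mutants). Replicates were single embryos' organs; their litters are not given in the sources used here.

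Claudins are membrane proteins that polymerise into the strands of tight junctions and set which ions and solutes pass between neighbouring cells. Some mainly seal the junction and others form selective pores, and each epithelium carries its own mixture. In the lung, claudin-18 belongs to the alveolar epithelium, claudin-5 to endothelium, claudin-6 to embryonic epithelium, and claudin-3, claudin-4 and claudin-7 to epithelium along the whole airway tree.

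Total counts were 11.74 to 32.84 M per library. Levels are given in CPM, counts scaled to TMM-adjusted library sizes. Myocd kept reads in every library. It stood at 6.64 to 13.1 CPM in E13.5 mutant lung against 10.1 to 18.9 CPM in controls. It stood at 5.57 to 10.1 against 6.06 to 11.8 CPM in E18.5 lung and at 2.74 to 8.66 against 0.895 to 8.07 CPM in the trachea, so the ranges overlapped in all 3. The counts cover the whole gene, and a deletion of part of it need not remove its reads. Contractile smooth muscle markers (10 genes), among them known targets of myocardin, did separate the genotypes. Their sums were 1007 to 1298 CPM in control and 533 to 872 CPM in mutant lung at E13.5, 1165 to 1263 and 1078 to 1150 CPM in lung at E18.5, and 1031 to 1505 and 356 to 578 CPM in trachea, with 5, 2 and 3 of the 10 genes lower by test and 0 higher. Lung and trachea libraries carried the markers of their labels: the summed level of 12 alveolar type 2 markers was 18160 to 21010 CPM in E18.5 control lung and 1122 to 1230 CPM in control trachea, and that of 10 airway basal markers was 75.9 to 85.9 and 1307 to 1395 CPM. The tracheas differed among themselves. Markers of thyroid and parathyroid (12 genes) summed to 643, 118, 18.53 and 13.46 CPM in control tracheas 1 to 4, with Pth, Gcm2 and Casr at 0, and to 22.8 to 547 CPM in mutant tracheas. Reads at 3 loci that collect ribosomal RNA (Gm23935, Mir6236 and CT010467.1) took 8.31%, 8.51% and 18.3% of counts in mutant tracheas 2, 3 and 4, against 0.962% to 4.14% in the other tracheas and at most 0.182% in lung.

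The members differed widely in level, and the mixture was different in each organ and stage. Within a library genes were compared in TPM (counts per exon length, scaled to one total per library), as each member's share of the summed claudin TPM. In E13.5 control lung Cldn6 made up 43.8% ± 1.94 (SD, n = 5) of the sum, Cldn5 18.8% ± 1.18 and Cldn3 11.3% ± 0.349. In E18.5 control lung the largest shares were those of Cldn5 at 37.7% ± 1.61 (SD, n = 4), Cldn18 at 29.3% ± 1.97 and Cldn3 at 19.6% ± 0.47, and Cldn6 was down to 1.12% ± 0.019. The control trachea was led by Cldn3 at 34.9% ± 3.01 (SD, n = 4), Cldn10 at 18.3% ± 2.7 and Cldn7 at 14.9% ± 1.87, and Cldn18 held 0.00799% ± 0.00116. The summed TPM of the 10 members was 874 ± 58.6 in E13.5 control lung, 1697 ± 63.9 in E18.5 control lung and 772 ± 47.5 in control trachea. The order of trachea and E13.5 lung depended on the measure. TPM totals included the ribosomal loci, which took 1.06% to 3.36% of counts in control trachea and at most 0.132% in control lung. What these loci contributed to the TPM order was not tested. In summed CPM control trachea was the higher, at 500.4 to 517.1 CPM against 395.9 to 477.5 CPM in E13.5 control lung. E18.5 control lung was at 994.1 to 1129 CPM. Mutant groups kept the order of the 3 leading claudins of their controls in each tissue and stage.

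**Figure D1:**
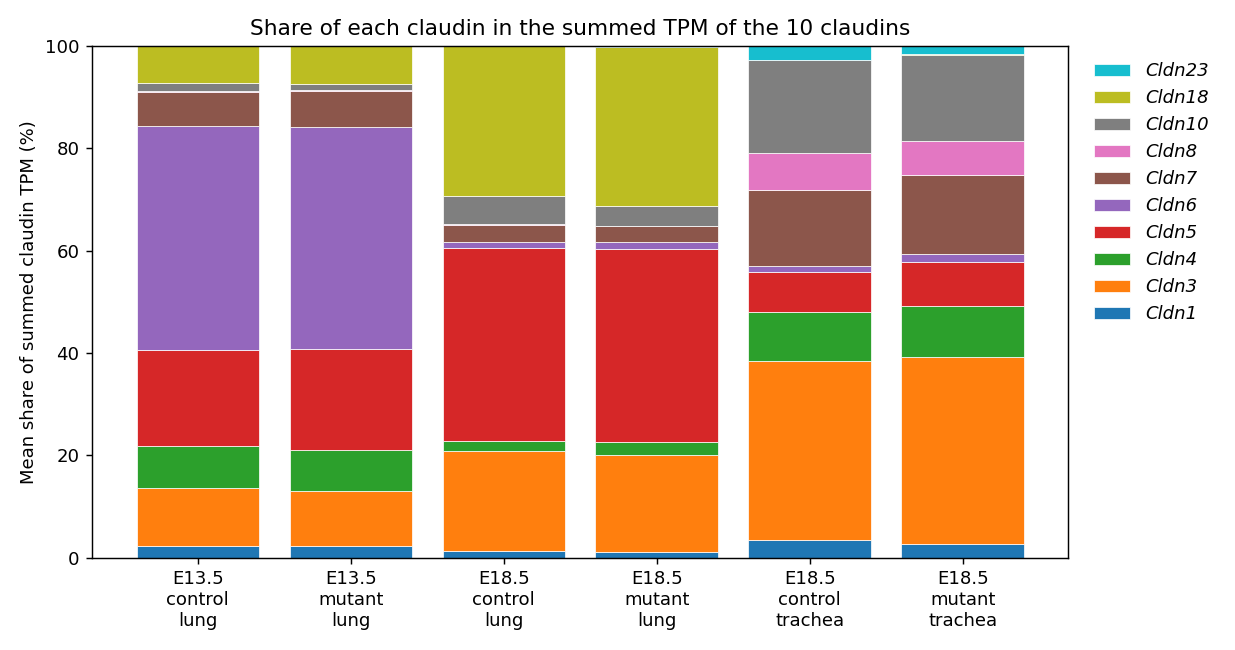
Stacked bars of the mean share (%) of each of the 10 claudins in their summed TPM, for the 6 groups. Cldn6 fills 43.8% of the E13.5 control lung bar and 1.12% of the E18.5 control lung bar, Cldn18 is visible in lung bars only, and each mutant bar resembles the bar of its control.

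Stage and organ were compared within the controls. Between E13.5 and E18.5 control lung, 6 of the 10 members passed the test (edgeR quasi-likelihood test, adjusted p below 0.05), 4 higher at E18.5 and 2 lower. Of all genes tested 80.0% passed in this comparison, 40.4% higher and 39.6% lower, so the members' share is not above the background. Between control trachea and control lung at E18.5, 9 of 10 passed, 6 higher in trachea and 3 lower, against 52.4% of all genes tested, 24.7% higher and 27.7% lower. The median log2 fold change of the members was 0.57 by stage and 0.93 by tissue, beside 0.01 and -0.05 over all genes tested. Right lobes alone were taken at E18.5 and both sides at E13.5, so stage and lobes cannot be told apart. In tissue-level libraries, fewer cells of a type and less RNA per cell cannot be told apart either.

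**Figure D2:**
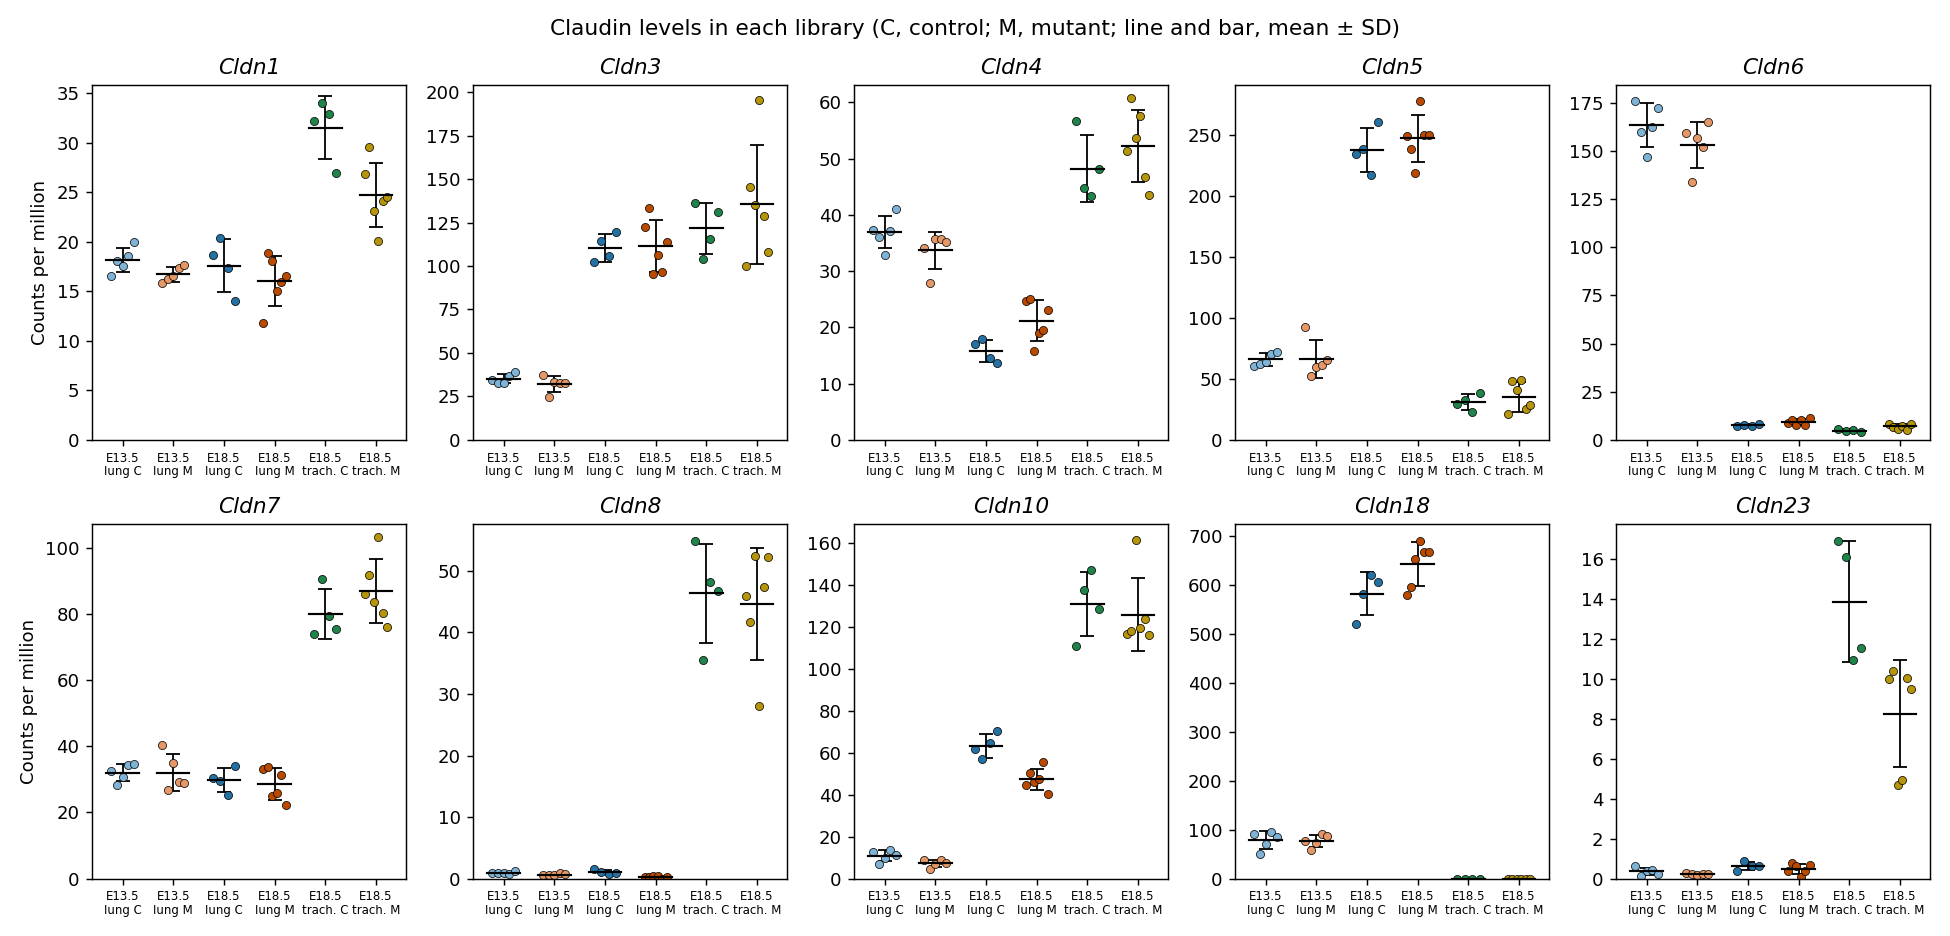
CPM of each claudin in each of the 30 libraries, 1 panel per gene with a linear axis from 0, points for libraries, lines and bars for mean ± SD of a group. Cldn18 runs at 521 to 620 CPM in E18.5 control lung and under 0.13 CPM in control trachea, and Cldn8 and Cldn23 show the opposite arrangement.

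Cldn18 and Cldn5 were the most abundant claudins of the E18.5 lung and both rose with stage. Cldn18, the claudin of alveolar type 1 and type 2 cells, stood at 91.1, 50.2, 71.4, 94.7 and 85.7 CPM in E13.5 control lungs 1 to 5 and at 521, 583, 620 and 607 CPM in E18.5 control lungs 1 to 4. The highest E13.5 library was far below the lowest E18.5 library, and the log2 fold change was 2.96 (SE 0.153, adjusted p = 2.02e-09), or 7.76-fold. Alveolar markers moved with it: 11 of 12 type 1 markers were higher and 1 lower, with sums of 308 to 353 and 6400 to 7021 CPM, and 12 of 12 type 2 markers were higher, with sums of 175 to 274 and 18160 to 21010 CPM and Sftpd at 0 in E13.5 controls. Their part in the rise of Cldn18 was not tested.

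In the trachea Cldn18 was almost without reads: the 4 control libraries held 3, 1, 2 and 3 reads, 9 in all, against 68173 in the 4 E18.5 control lungs. The ratio in CPM was 5890 (95% interval 3100 to 12900, for counting error only), and the fitted difference passed the test (adjusted p = 1.3e-12). The 6 mutant tracheas held 0 to 7 reads, and the library with 0 allows up to 0.1 CPM. Of the 12 type 1 markers 11 were lower in trachea than in lung and 1 higher, and all 12 type 2 markers were lower. Their sums in control trachea were 616 to 725 and 1122 to 1230 CPM, though a sum can rest on a few abundant genes. Akap5, a type 1 marker, was at 1.86 CPM in control trachea and 627 CPM in E18.5 control lung. Cldn18 was the member with the largest difference between the organs, and only 0.0171% of all genes tested had a fitted change as large.

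Cldn18 (chromosome 9, 99689461 to 99717267, minus strand, GRCm38) has 2 RefSeq starts, known for a lung and a stomach form of the protein. The counts sum both starts, so the form is not resolved here. The 250 bases before each start are shown because the lung and trachea levels of this gene lie furthest apart (RefSeq, GRCm38.p6, chr9:99717268-99717517 and chr9:99710064-99710313, minus strand, outside annotated exons). Capitals mark CAAGTG or its reverse complement CACTTG, the core bound by NKX2-1, the lung epithelial homeodomain factor, and GGGCGG or CCGCCC, the GC box of SP factors, searched on both strands. No match of one motif overlapped the other in these windows.
Cldn18 upstream start: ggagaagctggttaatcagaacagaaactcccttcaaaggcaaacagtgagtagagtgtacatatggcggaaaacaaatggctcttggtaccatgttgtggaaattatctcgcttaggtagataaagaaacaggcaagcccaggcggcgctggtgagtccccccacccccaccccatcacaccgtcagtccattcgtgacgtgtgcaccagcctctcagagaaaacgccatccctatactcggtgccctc
Cldn18 downstream start: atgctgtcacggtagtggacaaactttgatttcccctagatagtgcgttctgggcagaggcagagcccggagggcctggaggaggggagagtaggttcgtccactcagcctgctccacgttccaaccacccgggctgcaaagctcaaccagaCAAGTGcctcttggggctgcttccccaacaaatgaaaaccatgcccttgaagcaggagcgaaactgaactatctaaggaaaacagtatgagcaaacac
The window of the upstream start held neither motif, and that of the downstream start held 1 CAAGTG, 98 bases before the start. Which start gives the lung form was not determined here, so this match is not assigned to the lung form. Among all 32851 RefSeq windows of this length 11.6% held the NKX2-1 core and 32.7% the GC box, so a match by itself is common. Of the 8 members found in the promoter table, 4 had an NKX2-1 core in a window (Cldn1, Cldn7, Cldn10 and Cldn18) and 7 a GC box, all but Cldn18. Some members have 2 windows. Counted per window, as the shares above are, 5 of their 11 windows held the core and 7 the box. Cldn8 and Cldn23 were not in it.

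Cldn5, the claudin of endothelial junctions (chromosome 16, 18776847 to 18778260, plus strand), stood at 60.6, 62.2, 64.2, 70.7 and 72.3 CPM in the E13.5 control lungs and at 234, 239, 217 and 261 CPM in those of E18.5. It rose 3.77-fold (log2 fold change 1.91, SE 0.0697, adjusted p = 2.36e-11). In control tracheas it was at 29.4, 33, 22.8 and 38.3 CPM, 7.77-fold below E18.5 lung (log2 fold change -2.96, SE 0.143, adjusted p = 2.4e-08). The 3 sets of libraries did not overlap. All 15 endothelial markers moved the same way in both comparisons, with sums of 1144 to 1418 CPM at E13.5, 4253 to 4570 CPM at E18.5 and 672 to 756 CPM in trachea. The part of these cells in the Cldn5 differences was not tested.

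Cldn6, a claudin of embryonic epithelium (chromosome 17, 23679365 to 23682446, plus strand), fell the most. Its libraries were at 176, 160, 147, 162 and 172 CPM in E13.5 control lung, where it led the family, and at 7.05, 7.59, 7.17 and 8.22 CPM at E18.5. The fall was 20.8-fold (log2 fold change -4.38, SE 0.078, adjusted p = 5.54e-14), and 3.98% of all genes tested changed as much in either direction. Of 20 epithelial markers 15 were higher at E18.5 and 1 lower, and their summed level went from 707 to 909 CPM to 1837 to 2020 CPM. Epcam, which is not on that list, fell 2.19-fold. The part of epithelial cells in the Cldn6 fall was not tested. In control tracheas Cldn6 was at 5.82, 4.39, 5.14 and 3.94 CPM, below the lungs of the same stage (log2 fold change -0.65, SE 0.22, adjusted p = 0.0285). That last call was lost in a fit with the replicate number as a block (-0.66, adjusted p = 0.0661), without the filter on low counts (adjusted p = 0.0999) and in 6 of 8 fits that left out 1 library, where the adjusted p reached 0.106. Those 6 were the fits without any one of control lungs 1 to 4 and without control trachea 3 or 4.

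Cldn3 and Cldn4 are sealing claudins of epithelium and lie next to each other on chromosome 5, 39.3 kb apart, each as a gene without introns. With stage they went opposite ways. Cldn3 (134986214 to 134987472, plus strand) stood at 34.2, 32.9, 32.9, 36.7 and 38.9 CPM at E13.5 and at 102, 114, 106 and 119 CPM at E18.5, a 3.29-fold rise (log2 fold change 1.72, SE 0.0687, adjusted p = 5.55e-11). Cldn4 (134945119 to 134946934, minus strand) stood at 37.3, 36.1, 32.9, 37.2 and 41 CPM at E13.5 and at 17.1, 17.9, 14.6 and 13.7 CPM at E18.5, a 2.23-fold fall (log2 fold change -1.16, SE 0.0937, adjusted p = 6.18e-08). The pair thus began at nearly the same CPM at E13.5 and no library of either gene overlapped between the stages.

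By tissue the pair differed again. Cldn4 was at 56.6, 44.8, 43.4 and 48.1 CPM in control trachea, above every lung library of either stage, and 3.02-fold above E18.5 lung (log2 fold change 1.6, SE 0.134, adjusted p = 1.88e-06). Cldn3 was at 136, 104, 116 and 131 CPM in control trachea and overlapped the lung (log2 fold change 0.13, SE 0.0897, adjusted p = 0.262). Without control trachea 2, the library of fewest reads, Cldn3 passed as well (adjusted p = 0.029). Of the 10 members Cldn3 differed least between the organs, and it was the only one that did not pass there. The summed level of the 20 epithelial markers was 1837 to 2020 CPM in the lungs and 2911 to 3299 CPM in the tracheas, with 15 markers higher in trachea and 2 lower; its part in these values was not tested.

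The windows before the starts of both neighbours are shown for this opposite course (RefSeq, GRCm38.p6, chr5:134985964-134986213, plus strand, for Cldn3 and chr5:134946935-134947184, minus strand, for Cldn4, both outside annotated exons). Capitals are as above.
Cldn3: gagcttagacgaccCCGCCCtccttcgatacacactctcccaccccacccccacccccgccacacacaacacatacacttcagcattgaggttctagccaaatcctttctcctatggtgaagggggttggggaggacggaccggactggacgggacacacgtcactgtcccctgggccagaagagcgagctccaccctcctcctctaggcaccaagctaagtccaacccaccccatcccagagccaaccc
Cldn4: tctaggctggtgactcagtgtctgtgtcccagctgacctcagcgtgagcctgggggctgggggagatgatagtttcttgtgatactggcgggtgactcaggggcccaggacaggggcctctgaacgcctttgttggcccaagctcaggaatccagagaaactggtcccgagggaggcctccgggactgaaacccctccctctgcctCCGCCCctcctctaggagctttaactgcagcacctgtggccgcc
Each window held 1 GC box on the reverse strand and no NKX2-1 core. The box lay 236 bases before the start of Cldn3 and 44 bases before that of Cldn4, and the windows were alike in G and C content, at 60.8% and 62%.

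Cldn7 (chromosome 11, 69964779 to 69967885, plus strand) and Cldn1 (chromosome 16, 26356642 to 26371841, minus strand) did not pass by stage and were higher in the trachea. Cldn7, an epithelial claudin that also sits on the lateral membrane with EpCAM, was at 28.4 to 34.6 CPM in E13.5 control lung and 25.3 to 34 CPM in that of E18.5 (log2 fold change -0.04, SE 0.0896, adjusted p = 0.691). In control trachea it was at 74, 90.6, 79.4 and 75.4 CPM, 2.65-fold higher than in E18.5 lung (log2 fold change 1.41, SE 0.116, adjusted p = 1.63e-06). Cldn1, a barrier claudin best known from skin, was at 16.5 to 19.9 CPM at E13.5 and 14 to 20.4 CPM at E18.5 (log2 fold change 0.02, SE 0.104, adjusted p = 0.856). Its 4 control tracheas, at 32.2, 34, 32.9 and 26.9 CPM, were all above the lungs, 1.77-fold in the fit (log2 fold change 0.83, SE 0.146, adjusted p = 0.000606).

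Cldn10, whose splice forms build ion-selective pores and which marks secretory cells of the airway (chromosome 14, 118787908 to 118875489, plus strand), rose by stage and was higher still in the trachea. It was at 12.5, 6.9, 9.83, 13.7 and 11.3 CPM in E13.5 control lung, at 61.8, 56.8, 64.4 and 70.3 CPM at E18.5, and at 111, 138, 147 and 129 CPM in control trachea. The groups were fully separate, with log2 fold changes of 2.61 by stage (SE 0.151, adjusted p = 4.71e-09) and 1.04 by tissue (SE 0.103, adjusted p = 7.52e-06). Airway secretory markers moved in both comparisons: 10 of 10 tested were higher by stage, with sums of 24.2 to 34.2 and 1733 to 2038 CPM and Scgb1a1 at 0 in E13.5 controls, and 11 of 12 were higher in trachea, with sums of 49730 to 57130 CPM. The part of these cells in the Cldn10 values was not tested. The gene has 2 RefSeq starts and the counts sum over both.

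Cldn8 (chromosome 16, 88560828 to 88563183, minus strand) and Cldn23 (chromosome 8, 35824712 to 35826559, minus strand) were claudins of the trachea with few reads in lung. Cldn8, a barrier claudin known from the distal nephron, held 21 to 31 reads (0.799 to 1.24 CPM) in E13.5 control lung and 22 to 45 reads (0.755 to 1.53 CPM) at E18.5, which did not differ by test (adjusted p = 0.395). In control trachea it was at 54.9, 35.5, 48.2 and 46.8 CPM, 42.6-fold above E18.5 lung (log2 fold change 5.41, SE 0.233, adjusted p = 1.02e-08). Cldn23, a gene of a single exon that is among the least studied claudins, held 4 to 18 reads at E13.5 and 11 to 30 at E18.5. It was at 16.9, 16.1, 11 and 11.6 CPM in control trachea, 21.3-fold above lung (log2 fold change 4.42, SE 0.319, adjusted p = 5.57e-07). Its stage difference (log2 fold change 0.88, SE 0.404, adjusted p = 0.0594) passed without E13.5 control lung 1 (adjusted p = 0.0192) or without E18.5 control lung 1 (adjusted p = 0.028).

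Airway basal markers, 9 of 10 higher in trachea, and ciliated markers, 12 of 12 higher with sums of 227 to 273 CPM in lung and 757 to 1097 CPM in trachea, moved with the tracheal claudins; their part was not tested. Squamous and oesophageal markers (10 genes) summed to 13.49 to 16.4 CPM in lung and 48.6 to 78.8 CPM in trachea, with Crnn at 0 in both. Without control tracheas 1 and 2, which had the highest thyroid sums, the same number of members passed, 6 higher and 3 lower, and log2 fold changes were close: 5.48 for Cldn8, 4.14 for Cldn23, 1.55 for Cldn4, 1.39 for Cldn7 and 1.14 for Cldn10.

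**Figure D3:**
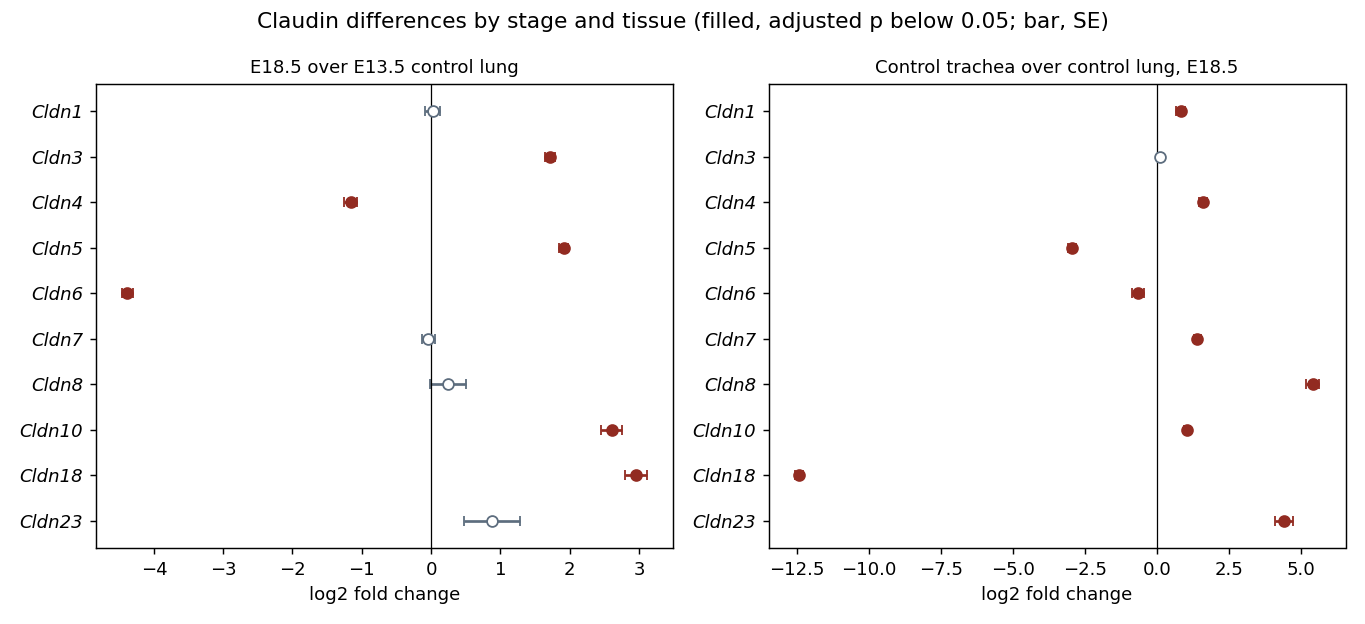
Log2 fold changes of the 10 claudins with SE bars, E18.5 over E13.5 control lung on the left and control trachea over control lung on the right, filled where the adjusted p was below 0.05. Cldn6 at -4.38 and Cldn18 at 2.96 bound the stage panel, and Cldn18 at -12.44 (9 reads in all in trachea) and Cldn8 at 5.41 the tissue panel.

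Mutants and controls differed in few of these genes. In E13.5 lung, 0 of the 9 members tested passed, against 0.206% of all genes tested, and 2 of the 9 had an unadjusted p below 0.05, as had 3.57% of all genes tested. DESeq2 called 0 as well. Cldn23 was left out there for low counts, at 4 to 7 reads in mutants. Cldn10 had the largest difference, at 8.91, 4.61, 6.88, 8.84 and 7.24 CPM in mutants 1 to 5 against the control values given above, with overlapping ranges (log2 fold change -0.56, SE 0.199, adjusted p = 0.998). Cldn8 followed at -0.47 (SE 0.202, adjusted p = 0.998), with 9 to 25 reads in mutants. The other 7 members lay between -0.12 and 0.02 on the log2 scale. Cldn6, the leading claudin of that stage, was at 134 to 165 CPM in mutants and 147 to 176 CPM in controls (log2 fold change -0.08, SE 0.067, adjusted p = 0.998).

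In E18.5 lung 1 of 10 members passed, Cldn10, against 0.584% of all genes tested (0.550% lower). An unadjusted p below 0.05 was found for 5 of the 10, Cldn4, Cldn6, Cldn8, Cldn10 and Cldn18, and for 9.41% of all genes tested, and DESeq2 called 2. Mutant lungs had 40.4 to 55.4 CPM with a median of 46.8 CPM, and every one was below the lowest control at 56.8 CPM. Cldn10 fell 1.33-fold (log2 fold change -0.41, SE 0.0872, adjusted p = 0.0371), a size that 13.8% of all genes tested reached. The call was lost in 7 of 10 fits that left out 1 library (without control 1, 3 or 4 or mutant 1, 3, 4 or 6, adjusted p 0.0512 to 0.176) and in a fit of all 30 libraries (adjusted p = 0.283). The estimate stayed between -0.46 and -0.36 in the fits that left out 1 library.

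Cldn8 had the largest fold change of any member in the mutant lung. Mutants held 0, 5, 6, 9, 9 and 12 reads, at most 0.424 CPM, and controls 22, 24, 35 and 45 reads, at least 0.755 CPM, so that the groups did not overlap. The library with 0 reads allows up to 0.118 CPM. The fitted log2 fold change was -2.02 (SE 0.61, adjusted p = 0.218), which did not pass, although 0.115% of all genes tested had as large a change. Counted over all libraries, 126 reads in controls and 41 in mutants gave a ratio of CPM of 4.07 (95% interval 2.84 to 5.94, for counting error only). DESeq2 (adjusted p = 0.0388) and the fit of all 30 libraries (adjusted p = 0.000867) called it, while adjusted p ran from 0.166 to 0.815 when 1 library was left out of the edgeR fit.

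Markers of airway cells were lower in the same mutant lungs. Of the secretory markers tested, 5 of 10 fell (Scgb1a1, Cyp2f2, Aldh1a1, Hp and Cyp2s1), and the summed level was 1733 to 2038 CPM in controls, with Bpifa1 at 0, and 1028 to 1385 CPM in mutants. Of the ciliated markers 7 of 12 fell, and the sums were 227 to 273 and 136 to 179 CPM. Alveolar type 2 markers had negative values in 11 of 12, with 1 past the test (Sftpd, lower), and their sums overlapped, at 18160 to 21010 and 15990 to 21020 CPM. Alveolar type 1 sums overlapped, at 6400 to 7021 and 5623 to 6938 CPM, as did basal sums, at 75.9 to 85.9 and 72.9 to 87 CPM. The part of the airway and alveolar markers in the Cldn10 and Cldn8 values was not tested.

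**Figure D4:**
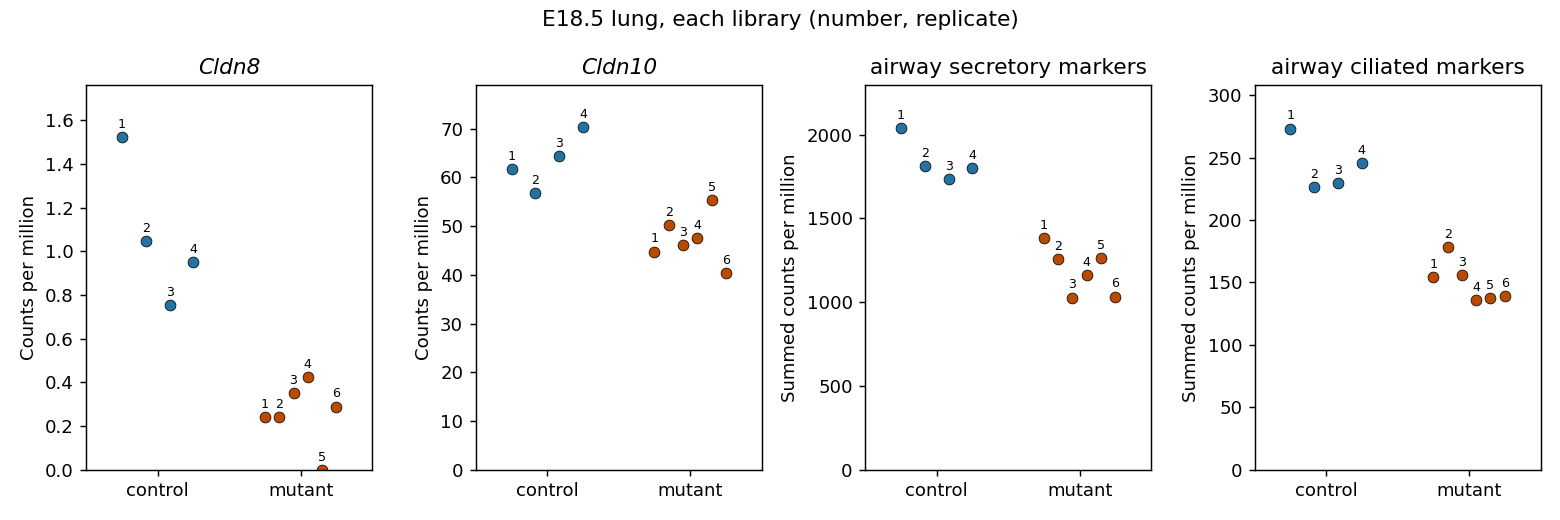
Cldn8 and Cldn10 CPM and the summed CPM of the airway secretory and ciliated markers in each E18.5 lung library, numbered by replicate, on linear axes from 0. In all 4 panels each mutant lies below each control, with Cldn10 at 40.4 to 55.4 against 56.8 to 70.3 CPM.

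The alveolar and sealing claudins of the E18.5 lung did not pass. Cldn4 was at 15.8 to 25.1 CPM (median 21.3) in mutants and 13.7 to 17.9 CPM in controls (log2 fold change 0.43, SE 0.134, adjusted p = 0.237). Cldn6 was at 7.76 to 11.6 and 7.05 to 8.22 CPM (0.34, SE 0.152, adjusted p = 0.496), and Cldn18 at 580 to 691 and 521 to 620 CPM (0.15, SE 0.0672, adjusted p = 0.496). Cldn1, Cldn3, Cldn5 and Cldn7 lay between -0.13 and 0.07, and Cldn23, at 2 to 21 reads, at -0.39 (SE 0.584, adjusted p = 0.881). Cldn7 is the member on the chromosome of Myocd, 4.69 Mb away, and its differences were 0.02, -0.06 and 0.16 in E13.5 lung, E18.5 lung and trachea.

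In the trachea 0 of the 9 members tested passed, against 0.0710% of all genes tested. Cldn18 was left out for low counts, 3 of the 9 had an unadjusted p below 0.05 (6.75% of all genes tested), and DESeq2 called 0. Cldn23 had the largest difference: mutants were at 4.68 to 10.4 CPM (median 9.76) and controls at 11 to 16.9 CPM without overlap (log2 fold change -0.71, SE 0.26, adjusted p = 0.66). Mutants 3 and 4, at 4.68 and 4.96 CPM, were apart from the other mutants, at 9.51 to 10.4 CPM. Cldn6 was at 5.34 to 8.27 CPM in mutants and 3.94 to 5.82 CPM in controls (0.57, SE 0.248, adjusted p = 0.732), and passed only in the fit of all 30 libraries (adjusted p = 0.049). Cldn1 was at 20 to 29.5 and 26.9 to 34 CPM (-0.32, SE 0.136, adjusted p = 0.73). Cldn8 was at -0.02 (SE 0.16) and Cldn10 at -0.02 (SE 0.119) in trachea, beside -2.02 and -0.41 in E18.5 lung. Cldn23 had negative values in both organs, -0.71 in trachea and -0.39 in lung.

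Part of the spread among mutant tracheas ran with the ribosomal share. The libraries with 8.31%, 8.51% and 18.3% of counts at ribosomal loci, mutants 2, 3 and 4, held 48.6, 40.7 and 49.1 CPM of Cldn5 and 145, 135 and 196 CPM of Cldn3. Mutants 1, 5 and 6, at 0.962%, 4.14% and 1%, held 20.9, 25 and 28.4 CPM of Cldn5 and 100, 129 and 108 CPM of Cldn3. Endothelial sums in mutant tracheas were 650 to 781 CPM. Without those 3 libraries the log2 fold changes of Cldn3, Cldn4 and Cldn5 turned from 0.20, 0.15 and 0.24 to -0.12, -0.03 and -0.32, and again 0 members passed. That of Cldn23, lowest in mutants 3 and 4, went from -0.71 to -0.496. What the ribosomal share contributed was not tested further.

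**Figure D5:**
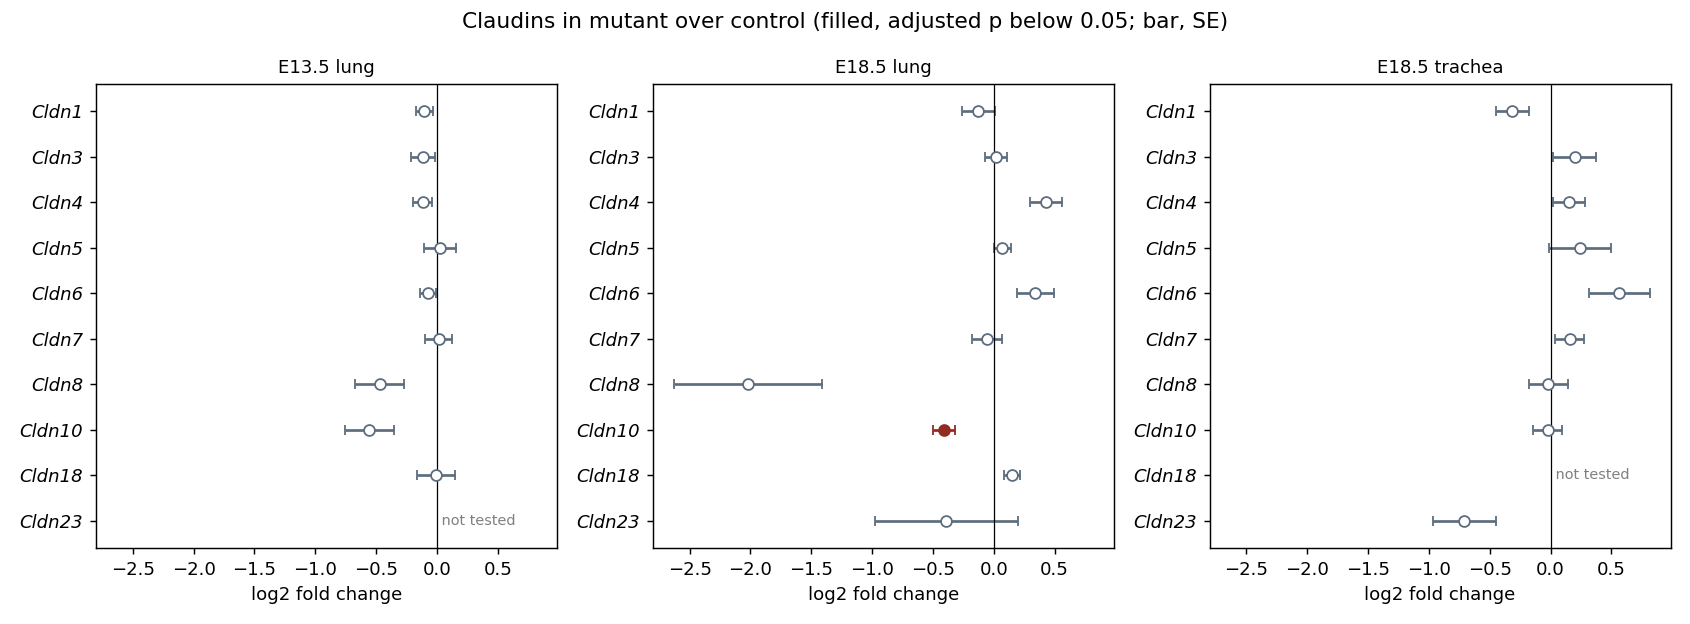
Log2 fold changes of mutant over control with SE bars in E13.5 lung, E18.5 lung and E18.5 trachea, filled where the adjusted p was below 0.05. The single filled point is Cldn10 in E18.5 lung at -0.41, and the widest bar is that of Cldn8 beside it at -2.02.

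The mutant difference itself was compared between organs and between stages. For trachea minus lung at E18.5, 0 of 10 members passed, against 0.0252% of all genes tested, with 2 at an unadjusted p below 0.05 (6.92% of all genes tested). Cldn8 came closest, with a difference of 2.04 on the log2 scale (SE 0.405, adjusted p = 0.104). It passed with DESeq2 (adjusted p = 0.000104), in the fit of all 30 libraries (adjusted p = 0.0268) and without mutant lung 5 (adjusted p = 0.0437) or mutant trachea 4 (adjusted p = 0.0239). For Cldn10 it was 0.43 (SE 0.15, adjusted p = 0.512). For E18.5 minus E13.5 lung 0 of 10 passed, against 0.0268% of all genes tested, with 3 at an unadjusted p below 0.05 (5.85% of all genes tested) and 0 called by DESeq2, and the largest difference was that of Cldn8 at -1.54 (SE 0.597, adjusted p = 0.702). The organ comparison and the stage comparison share the E18.5 lung libraries.

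The proteins that claudins work with gave a background. Of 31 tight junction partners in the tables (scaffolds, other membrane proteins and polarity proteins), 0 passed in any of the 3 mutant comparisons or the 2 differences between them, with edgeR or DESeq2. Of all genes tested at most 0.584% passed there with edgeR. Unadjusted p was below 0.05 for 0 to 5 of the partners in each, and for 3.57% to 9.41% of all genes tested. Median log2 fold changes of the partners there were between -0.08 and 0.10. By stage 25 partners rose and 4 fell, beside 40.4% and 39.6% of all genes tested, with a median of 1.15 beside 0.01. By tissue 6 were higher in trachea and 21 lower, beside 24.7% and 27.7%, with a median of -0.52 beside -0.05. Tjp1, the ZO-1 scaffold to which claudins bind, was 3.54-fold higher at E18.5 than at E13.5 and 6.76-fold lower in trachea than in lung. F11r (JAM-A) followed the same course, 3.06-fold higher by stage and 2.01-fold lower by tissue. Epcam, the partner of claudin-7, took the course of Cldn4, with a fall of 2.19-fold by stage and a 2.87-fold higher level in trachea.

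Others of this list also had large changes. Pard6b, of the PAR polarity complex, Ildr2, an angulin of tricellular contacts, and Magi3, a scaffold, rose 4.79-fold, 4.73-fold and 3.5-fold by stage and were 8.24-fold, 5.85-fold and 4.38-fold lower in trachea. Igsf5, a membrane protein of junctions, rose 4.18-fold by stage and did not pass by tissue (1.06-fold, adjusted p = 0.657). Cldn3 was alike in this, with a rise by stage and no call by tissue.

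Of the 17 other claudins counted, 5 to 7 had enough reads for a test in each comparison, and 0 passed in the mutant comparisons, with edgeR or DESeq2 or at an unadjusted p below 0.05. With edgeR at most 0.584% of all genes tested passed in those comparisons. By stage 2 rose and 3 fell of 6 tested, beside 40.4% and 39.6% of all genes tested. By tissue 3 of 6 were higher in trachea and 1 lower, beside 24.7% and 27.7%. Cldn2, a cation pore, stood at 0.129 ± 0.0605 CPM (SD, n = 5) in E13.5 control lung, 1.44 ± 0.509 CPM (n = 4) at E18.5 and 30.2 ± 7.3 CPM (n = 4) in trachea. Cldn11 was at 3.61 ± 0.934, 1.04 ± 0.266 and 25.5 ± 1.62 CPM, and Cldn9 at 1.97 ± 0.377, 0.347 ± 0.119 and 2.79 ± 0.982 CPM. Both fell by stage, 3.31-fold and 5.43-fold, and were higher in trachea, 24.3-fold and 7.9-fold, the course of Cldn4. Cldn15, a cation pore of the intestine, rose 1.53-fold by stage and was 4.73-fold lower in trachea, and Cldn12 fell 1.22-fold by stage and did not pass by tissue (1.06-fold, adjusted p = 0.604). Summed, these 17 genes gave 37.1 to 47.9 CPM in E18.5 control lung against 994 to 1129 CPM for the 10 members.

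For each member but Cldn8 the 2 genes nearest in pattern were sought over the 6 group means of log2(CPM + 0.5), each gene centred on its own mean, by the root mean square difference among 11176 genes. The nearest were Tvp23b and Golph3 for Cldn1, Vamp5 and Acbd4 for Cldn3, Efs and Cd248 for Cldn4, Fgd5 and Nrros for Cldn5, Cfi and Hmga2 for Cldn6, and Tctn2 and Ebf4 for Cldn7. For Cldn10 they were Nectin4 and Mcidas, for Cldn18 Akap5 and Tinag, and for Cldn23 Myh4 and Uox. Myh4 matched Cldn23 in these mean logs but not in mean CPM. It was at 0.185 CPM in E18.5 control lung and 146 CPM in control trachea, against 0.64 and 13.9 CPM for Cldn23. The closest fit was Tvp23b to Cldn1, with a difference of 0.02 on the log2 scale, and the loosest first match was Akap5 to Cldn18 with 1. With a pseudocount of 2 in place of 0.5, the first name stayed for Cldn1, Cldn5 and Cldn18. Each match rests on 6 group means, which share libraries and depth between genes.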

How the data were processed

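mRNA libraries of 20 lungs and 10 tracheas (TruSeq V2, unstranded; single reads of 75 bases, HiSeq4000, per the labels' protocols) were aligned by the authors with STAR (version not given) to the GRCm38 build, per the submitters' processing notes. The deposited values are raw counts per gene from featureCounts 1.6.2 at default options on GENCODE vM17, per the file headers: multi-mapping reads and reads over 2 genes are left out and strand is ignored. The authors' own tests used DESeq2, per the series design.

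Symbols came from GENCODE vM21 (53620 of 53715 IDs). No member shared a 75-base exon stretch with another gene's transcripts. Of Cldn3 exons, 3.18% overlap Wbscr25 on the other strand, so reads there cannot be assigned. Comparisons used edgeR 4.0.16 in R 4.3.3 (TMM, filterByExpr, robust quasi-likelihood F test, two-sided, Benjamini-Hochberg over all genes tested, threshold 0.05). SE is the log2 fold change over the square root of F. Only the groups compared entered a fit, with no covariate. CPM used TMM-scaled sizes over all 30 libraries.

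Same-numbered E18.5 control lungs and tracheas deviated together (correlations 0.232, 0.127, 0.189 and 0.157 across genes). The labels do not say whether they came from the same embryo. The tissue tests given above are unpaired, and the numbers entered as pairs only in the replicate block. Alternatives were DESeq2 1.42.0, RLE scaling, no filter, a replicate block, a fit of all 30 libraries and each library left out. After the data were seen, library totals without scaling, a block by genotype and number, and fits without the tracheas of highest thyroid or ribosomal share were added. Named genes were all members, the 2 genes nearest in pattern to each (mean of at least 2 CPM in the highest group, SD of group means at least 0.3, no predicted models), and of the junction lists the 4 most abundant and up to 4 largest changes per comparison. Some genes that this rule names are not reported here. The members and the 15 other lists were chosen with earlier results of these data known. The procedure was tested on simulated counts.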

Additional observations from a re-analysis of the deposited data

Results flagged for a closer look

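Of the 60 sets of libraries checked (10 members in 6 groups), 2 held a library far from the others of its group, and chance alone gives about 1 in 20. Cldn4 in E13.5 mutant lung replicate 2 was at 27.9 CPM, with the other 4 mutants at 34 to 35.7 CPM. The same library was also the lowest of its group for Cldn3, at 24.4 CPM, for Cldn6, at 134 CPM, and for Cldn5, Cldn7, Cldn10 and Cldn18. It was not the lowest for Cldn1, Cldn8 or Cldn23. Its summed claudin level was 345.4 CPM, against 415.9 to 465.3 CPM in the other 4 mutants. Cldn10 in E18.5 mutant trachea replicate 3 was at 161 CPM, with the other 5 mutants at 116 to 124 CPM. That library also had the lowest Cldn23, at 4.68 CPM, and 8.51% of its counts lay at the ribosomal loci. Leaving either library out made no member pass in its mutant comparison.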

How the results depend on the processing

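The stage and tissue calls of the members kept their direction in the alternatives run, and the Cldn6 tissue call was the one lost. With 1 library left out, 6 to 7 members passed by stage and 8 to 10 by tissue. At 4 to 6 libraries a group, log2 differences near 0 changed sign with the setting, and none of those passed.

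In the mutant comparisons the number of genes called depended on the tool. DESeq2 called 79 genes for lung at E13.5, 262 for lung at E18.5, 99 for trachea, 67 for trachea minus lung and 42 for E18.5 minus E13.5 lung, against 34, 102, 13, 5 and 5 with edgeR. With no filter on low counts there were 192 in E18.5 lung and 22 in trachea. One fit of all 30 libraries gave 156 in trachea, 22 for trachea minus lung and 0 for E18.5 minus E13.5 lung, and library totals without scaling gave 8 in trachea and 2 for trachea minus lung. Members called went to 2 in E18.5 lung with DESeq2 (Cldn8 and Cldn10), to 1 in trachea with all 30 libraries (Cldn6), and to 1 for trachea minus lung with DESeq2 and with all 30 libraries (Cldn8). Leaving out 1 library gave 17 to 56 genes for lung at E13.5, 26 to 205 for lung at E18.5, 3 to 16 for trachea, 2 to 9 for trachea minus lung and 3 to 19 for E18.5 minus E13.5 lung, and 0 to 1 members in E18.5 lung and for trachea minus lung. The cause was not tested.

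With the replicate number as a block, 0 genes passed in E13.5 lung, 22 in trachea and 8 for E18.5 minus E13.5 lung. Only numbers present in every group compared entered this fit, so some libraries were left out in comparisons with E18.5 mutants. The sources used here give no link between same-numbered mutants and controls. These 3 counts therefore do not show whether a call holds. In the tissue comparison with this block 8 members passed in place of the 9 of the unpaired fit. The one lost was Cldn6, and the block changed no other member's call. Same-numbered mutant lungs and tracheas all had positive correlations of their deviations, 0.0625 to 0.207, each best with its own number, but not all over 0.1. With a block by genotype and number, chosen after seeing the data, trachea minus lung had 5 genes and 0 members called, as many as without it. Between same-numbered mutants and controls the correlations ran from -0.178 to 0.0337 in E13.5 lung, from 0.00528 to 0.237 in E18.5 lung and from -0.238 to 0.295 in trachea. Between stages they ran from 0.0632 to 0.150 in control lungs and from -0.0753 to 0.0876 in mutant lungs. Small values turned sign under the block: Cldn5 (-0.00306) and Cldn18 (0.00883) in E13.5 lung, Cldn10 in trachea (0.0287) and Cldn18 for trachea minus lung (-0.0618). Cldn1 by stage was -0.00923 with no filter, -0.0389 with all 30 libraries and -0.0239 on library totals. Without mutant tracheas 2, 3 and 4 Cldn3 was at -0.116, Cldn4 at -0.0311, Cldn5 at -0.316 and Cldn8 at 0.0678 in trachea.

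Leaving out 1 library moved these log2 fold changes across 0, none past the threshold. In E13.5 lung Cldn5 ran from -0.13 to 0.0951, Cldn7 from -0.083 to 0.0713 and Cldn18 from -0.135 to 0.0723. In E18.5 lung Cldn3 ran from -0.0364 to 0.0622 and Cldn7 from -0.131 to 0.00778. In trachea Cldn8 ran from -0.12 to 0.0742 and Cldn10 from -0.105 to 0.0307. By stage Cldn1 ran from -0.0618 to 0.118 and Cldn7 from -0.113 to 0.0405. For trachea minus lung Cldn18 ran from -0.26 to 0.495. For E18.5 minus E13.5 lung Cldn1 ran from -0.122 to 0.0482, Cldn5 from -0.0347 to 0.202, Cldn7 from -0.151 to 0.0303 and Cldn23 from -0.0864 to 0.444.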
